A study of Mus musculus with 4 samples.

Results

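The genes described here are those of glycolysis, of the pentose phosphate pathway and of the response to low oxygen, measured by RNA sequencing in mouse osteoclast cultures. They were chosen by name: rows of the raw count table whose Ensembl identifier belongs to one of 36 listed symbols and which hold at least 40 counts over the 4 libraries. All 36 symbols were found, in 37 of the table's 23390 rows, because Aldoa has 2 gene models. The lowest total was 50 counts, for the second Aldoa model, and no listed symbol fell under the minimum.

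One set of cultures received 10 µM BMS-582949, an inhibitor of the stress-activated kinase p38α, and the other received the solvent DMSO, with 2 libraries each. Both groups came from bone marrow of wild-type (Wt) C57BL/6J mice of unstated age and sex, kept for 3 days with supernatant of the fibroblast line L929 standing in for 20 ng/ml of M-CSF, a growth factor of macrophages. The reseeded macrophages of both groups then received 40 ng/ml RANKL, the cytokine that drives osteoclast formation. The series asks how the compound acts on that step. The sources give either 3 or 4 days with the compound, and the protocol text names it for all 4 samples, so the treatment label decided each group. The labels leave unstated whether a group's 2 libraries stem from different mice or dishes. The spread behind the p-value of each gene's test is that between these libraries, in part shared over all genes, and it may be technical.

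Depth was 39255925 and 37455168 counts in the BMS-582949 libraries and 35331889 and 36178333 in the DMSO libraries. The cells were labelled osteoclasts, and all 10 osteoclast markers examined were detected in every library, with a summed level of 13312 and 13569 CPM with BMS-582949 against 111619 and 115993 CPM with DMSO. CPM is the count per 1e6 counts after TMM scaling, which sets libraries level on the bulk of their genes. All 10 of these markers were called lower, and 6 of 10 macrophage markers were called higher and 2 lower, with sums of 11095 and 11903 CPM against 10487 and 10705 CPM with DMSO. Stromal markers summed to 704 and 700 CPM against 1046 and 965 CPM with DMSO, and 7 of the 9 tested were lower. Neutrophil markers summed to 20.3 and 24.2 CPM with BMS-582949 and 29.5 and 29.3 CPM with DMSO, and markers of dendritic, B, T and NK, erythroid and mast cells to at most 3.38 CPM in any library, 3 of 6 T and NK and 3 of 6 mast cell markers being at 0. In bulk RNA, fewer cells of a type and less RNA per cell cannot be told apart, and the part of these markers in the results that follow was not tested.

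Glycolysis splits glucose into pyruvate and yields ATP, and the pyruvate is either reduced to lactate and exported or burned in mitochondria. The pentose phosphate pathway takes glucose 6-phosphate out of that route to make NADPH, used in reducing reactions, and ribose 5-phosphate, a building block of nucleotides. Hypoxia-inducible factor (HIF) is a transcription factor whose alpha subunit is marked for destruction by prolyl hydroxylases when oxygen is plentiful and which, once stable, raises transcription of many glycolytic genes. Osteoclasts are rich in mitochondria and also run glycolysis at a high rate.

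With BMS-582949, 22 of the 37 rows fell and 8 rose, and the other 7 were not called. A call is a Benjamini-Hochberg adjusted p under 0.05 over all 13214 genes tested by edgeR's quasi-likelihood test. Of all genes tested, 60.2% were called: 29.7% were lower and 30.5% higher. The median log2 fold change (BMS-582949 minus DMSO throughout) was -0.45 over the members and 0.027 over all genes. Changes of at least 2-fold were called lower for 10 members and higher for 1, where 11.3% and 9.94% of all genes tested passed the same rule. The libraries of the 2 groups did not overlap in level for 33 of the 37 rows, against 80.2% of all genes tested.

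The level to which libraries are scaled bears on these counts. The TMM factors were 1.15 and 1.13 with BMS-582949 and 0.880 and 0.872 with DMSO. The genes Acp5, Ctsk, Mmp9 and Ckb, all osteoclast markers, took 1.45% of all counts in both BMS-582949 libraries. They took 9.40% and 9.70% in the DMSO libraries. How much of the difference between the scales comes from these 4 genes was not tested. When libraries were scaled by total count alone, the median of all genes moved to 0.41, 51% of all genes passed the test in the higher direction and 17% in the lower one, and the members split into 14 higher and 17 lower with a median of -0.064. All 8 members called higher under TMM and 17 of the 22 called lower kept their call on that scale. The members as a whole held 1.74% and 1.72% of all counts with BMS-582949 and 1.72% and 1.73% with DMSO. Without those 4 genes in the total the shares were 1.76% and 1.75% with BMS-582949 and 1.90% and 1.91% with DMSO.

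**Figure D1:**
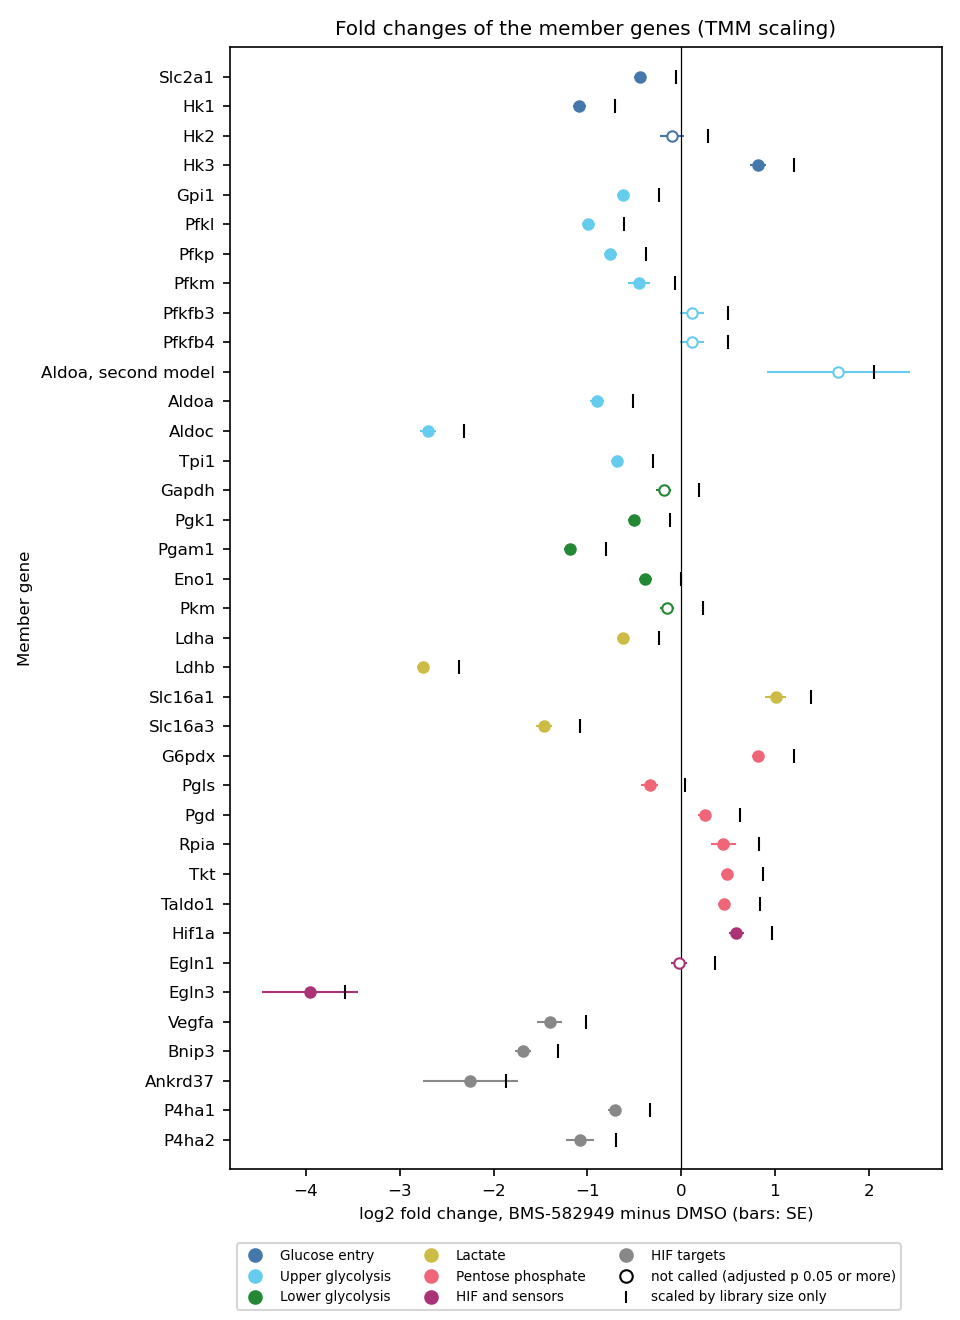
Log2 fold change of each member, BMS-582949 minus DMSO, with its standard error, coloured by role. Filled points were called at an adjusted p under 0.05, and black ticks show the same value when libraries were scaled by total count only. Ldhb, Aldoc and Egln3 lie farthest to the left, and most pentose phosphate genes lie to the right of 0 on both scales.

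Genes that bring glucose into the cell and trap it moved in different directions. Slc2a1, which encodes the glucose transporter GLUT1, had 57.6 and 56.5 CPM with BMS-582949 and 76.8 and 77.9 CPM with DMSO, a change of -0.44 ± 0.07 on the log2 scale (SE throughout; adjusted p = 1.0e-04). The groups did not overlap, but with scaling by total count the change was -0.057 and was not called. Hexokinases put the first phosphate on glucose, and the 3 genes for them behaved differently.

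Hk1, the broadly expressed mitochondrial hexokinase, had 102 and 98.7 CPM with BMS-582949 and 199 and 228 CPM with DMSO (-1.08 ± 0.07, adjusted p = 6.9e-08). Hk3, a hexokinase found mainly in myeloid cells, had 50.6 and 52.5 CPM with BMS-582949 and 28.4 and 29.9 CPM with DMSO (0.82 ± 0.09, adjusted p = 4.5e-06). Hk2, the inducible form, had 14.3 and 15.1 CPM with BMS-582949 and 14.0 and 17.6 CPM with DMSO (-0.10 ± 0.13, adjusted p = 0.54). Both Hk1 values with the compound lay under both DMSO values, both Hk3 values lay above, and the Hk2 values overlapped.

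Shares within a family of isozymes do not depend on how libraries are scaled. Taken per kilobase of transcript, Hk1 made up 59.2% and 57.3% of hexokinase RNA with BMS-582949 and 81.9% and 82.6% with DMSO. Hk3 made up 35.0% and 36.5% with BMS-582949 and 14.0% and 13.0% with DMSO. The length used matters to the levels of these shares. Per kilobase of all annotated exons, Hk1 stood at 42.6% and 40.8% with BMS-582949 and 69.8% and 70.7% with DMSO, and Hk3 at 48.8% and 50.3% against 23.1% and 21.5% with DMSO, so with the compound Hk3 came before Hk1 on that measure and after it on the other. Of the 26 isozyme shares computed, all 26 differed in the same direction between the group means with either length. With 2 libraries against 2 the exact two-sided permutation test cannot go below p = 0.333, which is the value of each share whose groups did not overlap.

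**Figure D2:**
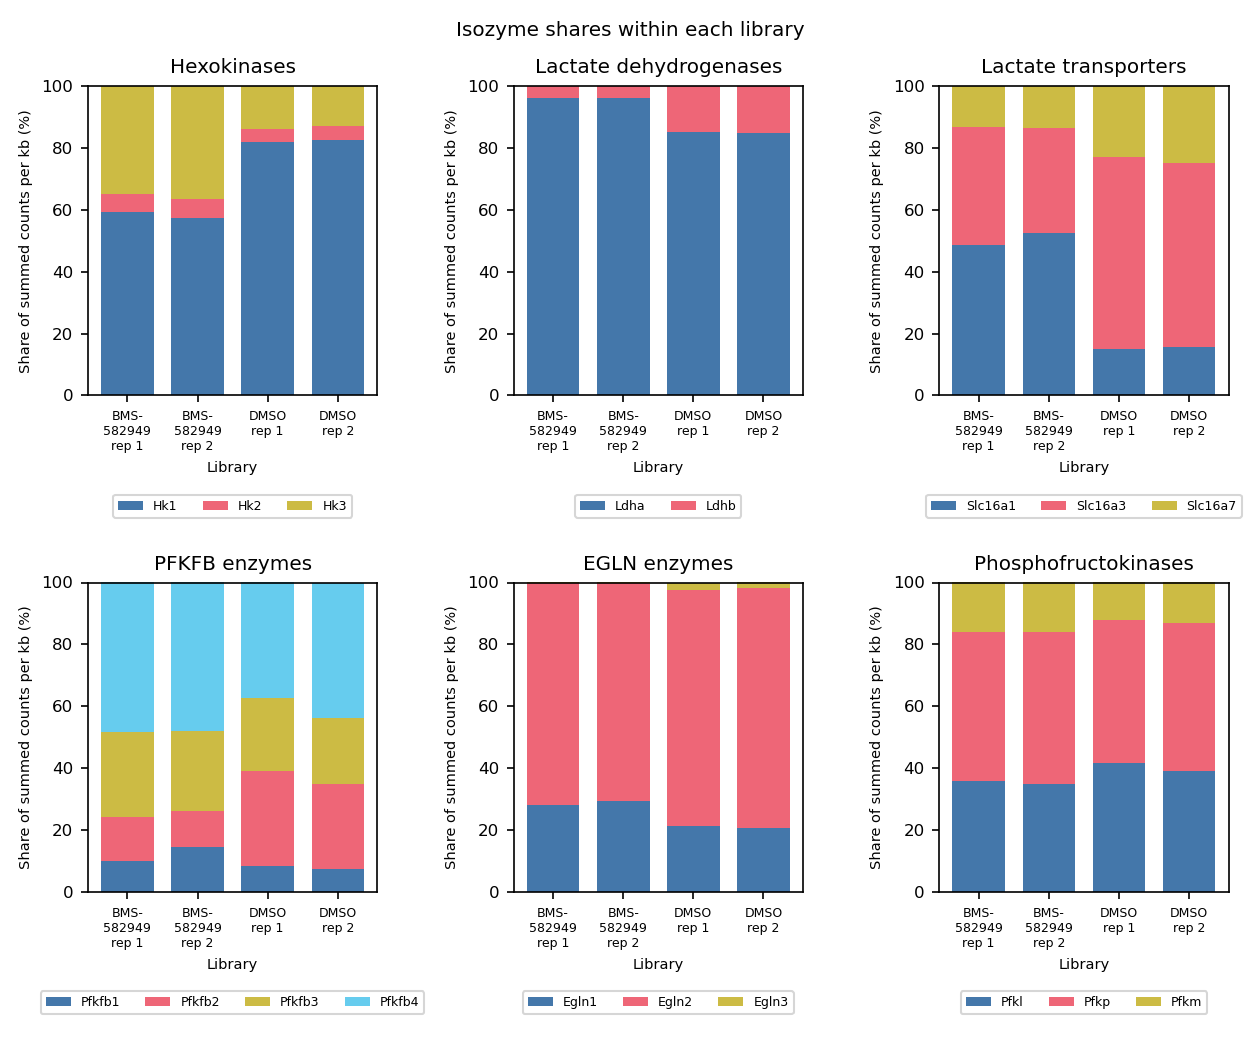
Share of each gene in the summed counts per kilobase of its family (percent, vertical axis), one bar per library, BMS-582949 on the left. Hk3 and Slc16a1 take a larger part of their families with BMS-582949, and Ldhb, Slc16a3, Slc16a7, Pfkfb2 and Egln3 a smaller one.

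In upper glycolysis, from glucose 6-phosphate to the triose phosphates, 7 of 10 rows fell, none rose and the median was -0.65. With scaling by total count 6 fell and 3 were called higher, with a median of -0.27. Of all genes tested, 29.7% were lower and 30.5% higher under TMM, and 17% and 51% by total count. Gpi1, the isomerase of the first step, had 693 and 727 CPM with BMS-582949 and 1074 and 1106 CPM with DMSO (-0.62 ± 0.07, adjusted p = 4.1e-06). Tpi1, which interconverts the 2 triose phosphates, had 675 and 658 CPM with BMS-582949 and 1082 and 1053 CPM with DMSO (-0.68 ± 0.06, adjusted p = 1.5e-06). In both genes the groups were well separated, the libraries of a group lying close together. Another gene model overlaps 11.5% of the exon sequence of Gpi1.

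Phosphofructokinase commits sugar to glycolysis, and all 3 of its subunit genes fell. Pfkl, the liver-type subunit, had 51.8 and 47.6 CPM with BMS-582949 and 99.3 and 97.7 CPM with DMSO (-0.99 ± 0.07, adjusted p = 1.2e-07). Pfkp, the platelet type, had 78.1 and 74.4 CPM against 124 and 133 CPM with DMSO (-0.75 ± 0.07, adjusted p = 9.1e-07). Pfkm, the muscle type, had 17.8 and 17.0 CPM against 22.2 and 25.2 CPM with DMSO (-0.45 ± 0.12, adjusted p = 0.0055). That change was -0.064 and not called with scaling by total count. Other gene models overlap 10.7% of the exon sequence of Pfkm. Within the family, Pfkl held 35.7% and 34.8% of the RNA per kilobase with BMS-582949 and 41.5% and 39.0% with DMSO, and Pfkm 15.9% and 16.1% against 12.0% and 13.1% with DMSO. Per kilobase of all exons the Pfkm shares were 28.1% and 28.7% with BMS-582949 and 21.6% and 23.5% with DMSO. Pfkp held 48.4% and 49.0% per kilobase of transcript with BMS-582949 and 46.5% and 47.9% with DMSO. Per kilobase of all exons Pfkp held 30.8% and 31.2% against 30.0% and 31.0% with DMSO, and the groups overlapped. On that measure Pfkl came before Pfkp, at 41.1% and 40.1% with BMS-582949 and 48.4% and 45.5% with DMSO.

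The PFKFB enzymes make and remove fructose 2,6-bisphosphate, the strongest activator of phosphofructokinase. Pfkfb3 had 15.5 and 13.1 CPM with BMS-582949 and 13.8 and 12.6 CPM with DMSO (0.12 ± 0.13, adjusted p = 0.45). Pfkfb4 had 20.4 and 18.3 CPM with BMS-582949 and 16.2 and 19.5 CPM with DMSO (0.12 ± 0.13, adjusted p = 0.46). The groups overlapped for both genes, yet both were called higher, each at 0.50, when libraries were scaled by total count. Of their relatives outside the members, Pfkfb2 fell (7.65 and 5.48 CPM with BMS-582949, 16.8 and 15.5 CPM with DMSO; -1.30 ± 0.16, adjusted p = 2.0e-05), and its share of PFKFB RNA per kilobase was 14.3% and 11.4% with the compound against 30.5% and 27.4% with DMSO. Other gene models overlap 19.5% of the exon sequence of Pfkfb2.

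Aldolase cleaves fructose 1,6-bisphosphate. Aldoa (ENSMUSG00000030695, GRCm38 chromosome 7, 126795234 to 126800751, minus strand), the most abundant glycolytic RNA per kilobase in both groups, had 1941 and 2142 CPM with BMS-582949 and 3797 and 3798 CPM with DMSO (-0.90 ± 0.08, adjusted p = 6.7e-07). Aldoc (ENSMUSG00000017390, chromosome 11, 78322968 to 78327781, plus strand), the aldolase known from brain, had 16.2 and 19.5 CPM with BMS-582949 and 115 and 116 CPM with DMSO (-2.70 ± 0.09, adjusted p = 1.8e-10). Aldoc was 6.49-fold lower with the compound, with wide separation of the groups, and its share of aldolase RNA per kilobase was 0.451% and 0.491% against 1.62% and 1.63% with DMSO (0.740% and 0.805% against 2.64% and 2.66% with DMSO per kilobase of all exons).

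The second Aldoa model (ENSMUSG00000114515), upstream of the main gene on the same strand, had only 24 and 17 counts with BMS-582949 and 3 and 6 with DMSO. Its log2 fold change of 1.68 ± 0.76 was not called (adjusted p = 0.075), and it was called at 2.06 with scaling by total count and at 2.23 after removal of trends on GC content and length. The value rests on few counts, and the 2 Aldoa models went in opposite directions.

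In lower glycolysis, from glyceraldehyde 3-phosphate to pyruvate, 3 of 5 genes fell and none rose, with a median of -0.38. With scaling by total count 1 fell and 2 were called higher, with a median of -0.0020. The shares of all genes tested were 29.7% lower and 30.5% higher under TMM, and 17% and 51% by total count. Pgam1, the phosphoglycerate mutase, fell most, with 408 and 419 CPM with BMS-582949 and 925 and 954 CPM with DMSO (-1.18 ± 0.06, adjusted p = 8.4e-09), and on the total-count scale it was the gene of this group still called lower. Pgk1, phosphoglycerate kinase, had 1044 and 1062 CPM against 1491 and 1494 CPM with DMSO (-0.50 ± 0.07, adjusted p = 2.7e-05). Eno1, the main enolase, had 1510 and 1581 CPM against 2009 and 2023 CPM with DMSO (-0.38 ± 0.07, adjusted p = 3.8e-04). Each of these genes had both compound libraries under both DMSO libraries.

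Another gene model overlaps 15.3% of the exon sequence of Pkm, pyruvate kinase. Pkm had 2897 and 2699 CPM with BMS-582949 and 3054 and 3147 CPM with DMSO, without overlap of the groups. Its change of -0.15 ± 0.07 was not called (adjusted p = 0.11). That value turned to 0.23 and was called higher with scaling by total count, while DESeq2, limma-voom and the fit without BMS-582949 replicate 1 called it lower. Gapdh, often used to normalise other measurements, had 66.8 and 78.4 CPM with BMS-582949 and 83.8 and 81.4 CPM with DMSO (-0.19 ± 0.08, adjusted p = 0.062). It was called lower with DESeq2 size factors (-0.21, adjusted p = 0.037), with a minimum of 1 CPM in 2 libraries (-0.20, adjusted p = 0.045) and without BMS-582949 replicate 2 (-0.33, adjusted p = 8.1e-04), and with scaling by total count it was 0.19 and was called higher.

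The level of Gapdh was low for this step of the pathway. Per kilobase of transcript it stood at 51.1 CPM with BMS-582949 and 58.2 CPM with DMSO, against 415 and 664 CPM per kilobase for Tpi1 just before it and 577 and 818 CPM per kilobase for Pgk1 just after it. In the GENCODE annotation 79 other gene models match the Gapdh transcript at 95% identity or more over at least 200 bases, and 75 of them are pseudogenes. Only 3 of those models stand in the count table, with 236 counts in all. The treatment of reads that match several copies is not stated, so both the level and the change of Gapdh are uncertain. Pgk1 and Ldha each have 4 such pseudogenes, and Eno1 resembles Eno1b, which held 12559 counts over the 4 libraries.

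**Figure D3:**
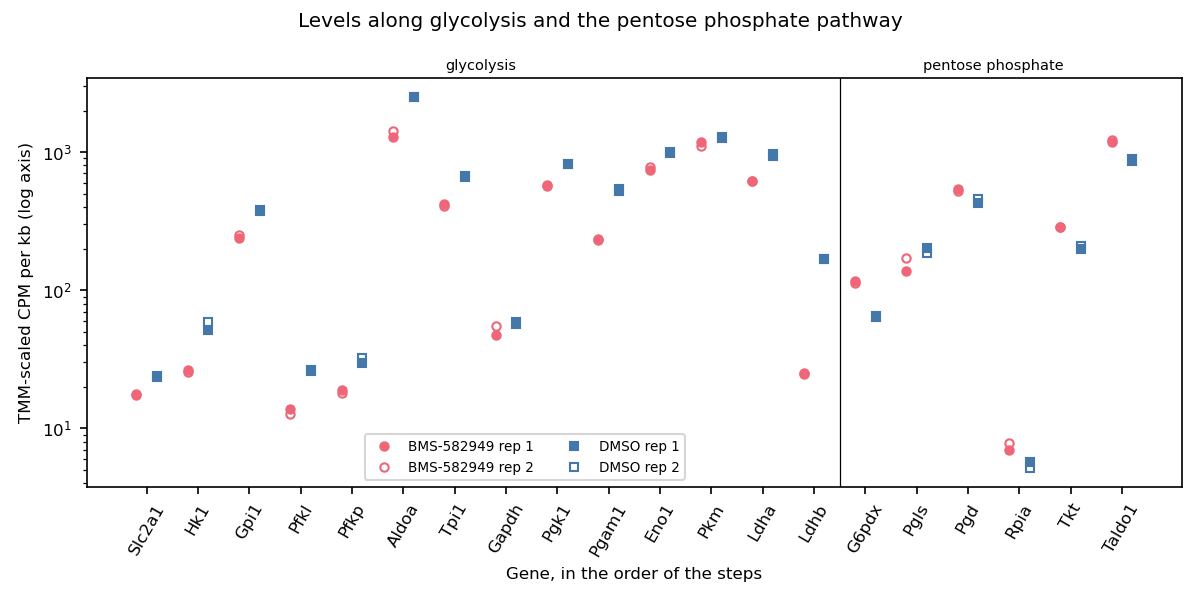
TMM-scaled CPM per kilobase of transcript (logarithmic axis) for the main glycolytic members in the order of their steps and then for the pentose phosphate members, with each library as a point, BMS-582949 red and left of DMSO in blue. All glycolytic genes drawn lie lower with BMS-582949, Pkm and Gapdh only slightly, and neither Pkm nor Gapdh was called. The direction of Pkm and Gapdh turns when libraries are scaled by total count. On that scale Slc2a1, Pgk1 and Eno1 were not called, at -0.057, -0.12 and -0.0020. Hk3, which was called higher, is not drawn, nor are Hk2, Pfkm, Pfkfb3, Pfkfb4, Aldoc and the second Aldoa model. G6pdx, Pgd, Rpia, Tkt and Taldo1 lie higher.

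Lactate dehydrogenase and the lactate transporters both shifted between isozymes. Ldhb (ENSMUSG00000030246, chromosome 6, 142490249 to 142507957, minus strand), whose subunit favours turning lactate back into pyruvate, had 32.1 and 32.9 CPM with BMS-582949 and 220 and 218 CPM with DMSO (-2.75 ± 0.06, adjusted p = 2.1e-11). Ldha, whose subunit favours making lactate, had 1087 and 1097 CPM with BMS-582949 and 1703 and 1648 CPM with DMSO (-0.62 ± 0.07, adjusted p = 5.1e-06). Both genes fell, Ldhb by 6.74-fold and Ldha by 1.53-fold, and no library of a group reached the other group. The Ldhb share of the pair per kilobase was 3.85% and 3.90% with the compound against 14.9% and 15.2% with DMSO, and per kilobase of all exons 5.86% and 5.95% against 21.4% and 21.8% with DMSO. Leaving out any one library kept the change of Ldhb between -2.79 and -2.74.

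The transporters of lactate across the cell membrane went apart. Slc16a1 (chromosome 3, 104638668 to 104658462, plus strand), which encodes MCT1, had 32.8 and 35.5 CPM with BMS-582949 and 16.8 and 17.2 CPM with DMSO (1.01 ± 0.11, adjusted p = 5.8e-06). Slc16a3 (chromosome 11, 120948480 to 120960868, plus strand), which encodes the lactate exporter MCT4, had 25.1 and 22.6 CPM with BMS-582949 and 67.8 and 63.6 CPM with DMSO (-1.46 ± 0.09, adjusted p = 2.4e-08). Slc16a1 was the member that rose by 2-fold, and neither gene overlapped between groups.

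Outside the members, Slc16a7, which encodes the high-affinity transporter MCT2, also fell (21.9 and 22.6 CPM with BMS-582949, 64.0 and 67.4 CPM with DMSO; -1.56 ± 0.08, adjusted p = 8.7e-09). Among the 3 transporters, Slc16a1 held 48.8% and 52.4% of the RNA per kilobase with BMS-582949 and 15.0% and 15.7% with DMSO, and Slc16a3 held 38.1% and 34.1% with BMS-582949 and 62.0% and 59.4% with DMSO. Slc16a1 thus ranked first with the compound and last with DMSO. The chaperones that carry these transporters to the membrane fell too: Bsg (basigin) had 351 and 346 CPM with BMS-582949 and 642 and 642 CPM with DMSO (-0.88 ± 0.06), and Emb (embigin) 210 and 240 CPM against 458 and 461 CPM with DMSO (-1.03 ± 0.07). Their adjusted p-values were 7.9e-08 and 9.3e-08.

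The pentose phosphate pathway was the role in which most members rose. In it 5 of 6 were higher and 1 was lower, with a median of 0.46. Of all genes tested 30.5% were higher, with a median of 0.027. With scaling by total count 5 pentose phosphate members were higher and none lower, with a median of 0.84. On that scale 51% of all genes tested were higher, with a median of 0.41. G6pdx (ENSMUSG00000031400, chromosome X, 74409483 to 74429194, minus strand), glucose 6-phosphate dehydrogenase and the entry to the pathway, had 310 and 297 CPM with BMS-582949 and 170 and 174 CPM with DMSO (0.82 ± 0.06, adjusted p = 1.6e-07). This was a 1.77-fold rise, and leaving out any one library kept it between 0.79 and 0.84. Other gene models overlap 13.6% of its exon sequence.

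The next oxidative enzymes moved less. Pgls, the lactonase, had 124 and 152 CPM with BMS-582949 and 181 and 166 CPM with DMSO (-0.33 ± 0.09, adjusted p = 0.0059), and it turned to 0.046 with scaling by total count. Its call was also lost after removal of GC and length trends (-0.18), and 20.6% of its exon sequence is shared with other gene models. Pgd, which makes the second NADPH and ribulose 5-phosphate, had 1189 and 1159 CPM with BMS-582949 and 956 and 1016 CPM with DMSO (0.25 ± 0.07, adjusted p = 0.0060), a call lost without DMSO replicate 1 (0.21, adjusted p = 0.066).

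In the branch that rearranges sugars, Tkt, transketolase, had 917 and 924 CPM with BMS-582949 and 636 and 676 CPM with DMSO (0.49 ± 0.06, adjusted p = 3.2e-05). Taldo1, transaldolase, had 1464 and 1510 CPM with BMS-582949 and 1062 and 1101 CPM with DMSO (0.46 ± 0.07, adjusted p = 6.9e-05). Rpia, which makes ribose 5-phosphate, had 12.8 and 14.4 CPM with BMS-582949 and 10.5 and 9.41 CPM with DMSO (0.45 ± 0.13, adjusted p = 0.011), and its call was lost without BMS-582949 replicate 2 (0.34, adjusted p = 0.12). All 3 genes had both compound libraries above both DMSO libraries.

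The counts of the pathways can be compared inside each library, as sums that are not divided by transcript length. Gapdh, whose level is uncertain, is part of the glycolysis sum and of the members' sum. For every 100 counts of the hexokinase, upper and lower glycolysis genes together, the pentose phosphate members had 41.8 and 41.7 counts with BMS-582949 and 21.3 and 21.9 with DMSO. Of all counts of the members, the pentose phosphate genes took 26.7% and 26.6% with BMS-582949 and 15.4% and 15.9% with DMSO, upper glycolysis 23.3% and 24.4% against 32.4% and 32.1% with DMSO, and the lactate genes 7.81% and 7.80% against 10.3% and 9.84% with DMSO. Lower glycolysis took 39.3% and 38.3% with BMS-582949 and 38.6% and 38.9% with DMSO, where the groups overlapped. Each of the separated ratios has the smallest permutation p that 2 against 2 allows, 0.333.

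**Figure D4:**
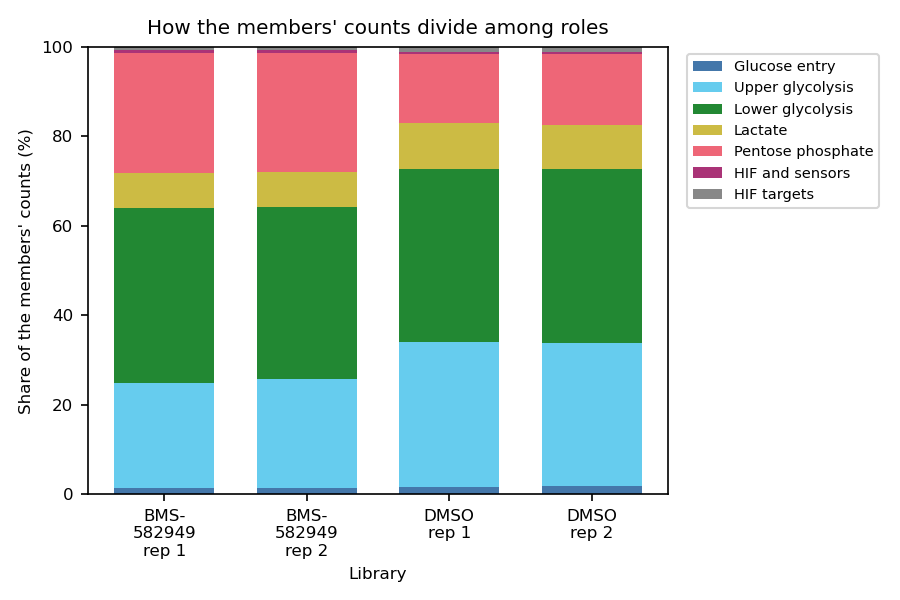
Division of the members' summed counts among their roles (percent, vertical axis) in each library, BMS-582949 on the left. The pentose phosphate segment is 26.7% and 26.6% of the bar with BMS-582949 and 15.4% and 15.9% with DMSO, and the upper glycolysis segment is smaller with BMS-582949.

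Hif1a (ENSMUSG00000021109, chromosome 12, 73901375 to 73947530, plus strand), the gene for the oxygen-regulated subunit of HIF-1, rose: it had 78.5 and 72.3 CPM with BMS-582949 and 52.0 and 48.1 CPM with DMSO (0.59 ± 0.08, adjusted p = 2.5e-05). RNA does not report the amount of the protein, which is regulated mainly by its breakdown. Egln1, the main prolyl hydroxylase that marks HIF for destruction, had 40.9 and 44.5 CPM with BMS-582949 and 44.0 and 42.4 CPM with DMSO (-0.018 ± 0.085, adjusted p = 0.87). Its groups overlapped, and it was called higher at 0.36 with scaling by total count.

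Egln3, a prolyl hydroxylase that is itself induced by HIF, had 0.0884 and 0.307 CPM with BMS-582949 and 3.54 and 2.63 CPM with DMSO (-3.96 ± 0.51, adjusted p = 2.6e-05). These are 4 and 13 counts against 110 and 83 counts with DMSO, so the size of the change is imprecise, being -5.09 when replicate 2 with BMS-582949 was left out and -3.32 when replicate 1 was. Per kilobase, Egln1 took 28.1% and 29.3% of the RNA of the 3 EGLN genes with BMS-582949 against 21.3% and 20.7% with DMSO, and Egln3 took 0.0819% and 0.273% against 2.31% and 1.73% with DMSO. The remainder was Egln2.

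The 5 members listed here under HIF targets (Vegfa, Bnip3, Ankrd37, P4ha1 and P4ha2) fell, with a median of -1.40, and they also fell with scaling by total count, with a median of -1.02. The list is not all of the HIF targets among the members, and those listed under other roles were split under TMM. Hk2, Pfkfb3, Pfkfb4 and Egln1, known as HIF targets too, were not called. Slc2a1, Aldoa (its main model), Pgk1, Eno1, Ldha, Slc16a3 and Egln3, also known as such, were called lower. Of these, Slc2a1, Pgk1 and Eno1 were not called with scaling by total count. Bnip3 (ENSMUSG00000078566, chromosome 7, 138890836 to 138909519, minus strand), which acts in the removal of mitochondria, had 29.4 and 27.2 CPM with BMS-582949 and 97.8 and 85.0 CPM with DMSO (-1.69 ± 0.09, adjusted p = 5.8e-09). Vegfa, the angiogenic growth factor, had 13.1 and 10.4 CPM with BMS-582949 and 32.4 and 29.5 CPM with DMSO (-1.40 ± 0.13, adjusted p = 1.8e-06). Both groups stood far apart in these genes, although another model overlaps 22.3% of the exon sequence of Bnip3.

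Ankrd37, a small ankyrin-repeat gene long used as a hypoxia marker, had 0.862 and 0.236 CPM with BMS-582949 and 3.12 and 2.16 CPM with DMSO (-2.25 ± 0.51, adjusted p = 0.0021). The compound libraries held 39 and 10 counts and the DMSO libraries 97 and 68, and the change was -3.47 when replicate 1 with BMS-582949 was left out and -1.63 when replicate 2 was. Other models overlap 26.4% of its exon sequence. P4ha1 and P4ha2 encode the catalytic subunits of the prolyl 4-hydroxylase of collagen. P4ha1 had 45.3 and 46.9 CPM with BMS-582949 and 77.2 and 73.5 CPM with DMSO (-0.71 ± 0.07, adjusted p = 2.8e-06). P4ha2 had 6.04 and 6.92 CPM with BMS-582949 and 15.1 and 12.3 CPM with DMSO (-1.08 ± 0.15, adjusted p = 5.9e-05). In both, each compound library lay under each DMSO library, and P4ha1 made up 80.6% and 78.9% of the pair per kilobase with BMS-582949 against 73.9% and 76.7% with DMSO. Per kilobase of all exons the share left to P4ha2 was 8.07% and 8.87% with BMS-582949 and 11.4% and 9.94% with DMSO.

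**Figure D5:**
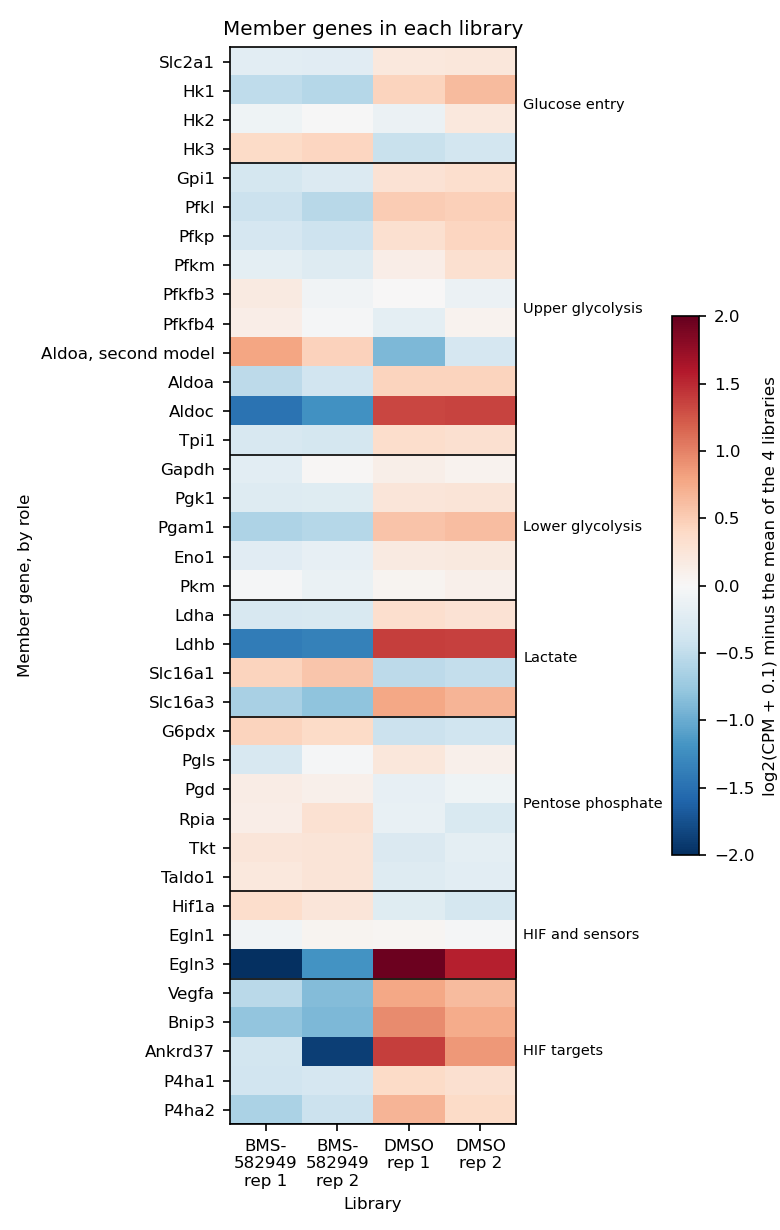
Level of each member in each library as log2(CPM + 0.1) minus the mean over the 4 libraries, rows ordered by role and BMS-582949 columns on the left. Blue rows in the left columns are the genes lower with BMS-582949, among them Aldoc, Ldhb, Egln3 and the genes listed as HIF targets, and the pentose phosphate rows other than Pgls are red there.

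HIF binds DNA at a short core, ACGTG or GCGTG. RefSeq promoter windows (build GRCm38.p6, 250 bases before to 50 bases after a transcript start) were found for all 36 member symbols, 50 windows in all, and both strands were searched for the 2 cores. Overlapping matches count separately, as in CACGTG, which holds ACGTG on both strands. ACGTG was in 54.0% of the members' windows and in 19.6% of all 32851 windows of the table, and GCGTG in 62.0% and 32.4%. Either core was in 84.0% of the members' windows, and in 43.8% of all windows. Some windows of one gene overlap (Aldoa, Eno1 and Pfkm), so the same site can count more than once. All windows were not matched to the members' windows in base composition or expression. Whether the difference in shares has to do with HIF was not tested. By direction, 20 of the 22 genes called lower and 8 of the 8 called higher had a core in at least 1 window. So did 6 of the 6 genes not called. For ACGTG alone the counts were 15 of 22 lower, 4 of 8 higher and 5 of 6 not called. These counts are per gene, so the shares over all windows are not a matching background for them. A match is a string of letters and not a measured binding site.

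Promoters of genes that went in opposite directions are shown side by side: Bnip3 and Egln3 (members of the hypoxia response that fell), Ldha (the glycolytic window with 5 matches to ACGTG) and G6pdx and Tkt (pentose phosphate genes that rose). Capitals mark ACGTG and GCGTG on either strand, so that a match on the opposite strand reads CACGT or CACGC, and adjoining matches run together. Positions are chr7:138909457-138909756 on the minus strand for Bnip3, chr12:54203825-54204124 on the minus strand for Egln3, chr7:46845554-46845853 on the plus strand for Ldha, chrX:74428831-74429130 on the minus strand for G6pdx and chr14:30548881-30549180 on the plus strand for Tkt. Each reads 5′ to 3′ along its gene.
Bnip3: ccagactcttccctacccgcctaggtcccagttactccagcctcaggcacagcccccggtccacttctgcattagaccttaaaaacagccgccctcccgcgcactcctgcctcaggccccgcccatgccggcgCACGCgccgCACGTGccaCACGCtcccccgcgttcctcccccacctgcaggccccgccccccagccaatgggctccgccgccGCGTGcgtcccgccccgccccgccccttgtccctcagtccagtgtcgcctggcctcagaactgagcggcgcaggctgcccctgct
Egln3: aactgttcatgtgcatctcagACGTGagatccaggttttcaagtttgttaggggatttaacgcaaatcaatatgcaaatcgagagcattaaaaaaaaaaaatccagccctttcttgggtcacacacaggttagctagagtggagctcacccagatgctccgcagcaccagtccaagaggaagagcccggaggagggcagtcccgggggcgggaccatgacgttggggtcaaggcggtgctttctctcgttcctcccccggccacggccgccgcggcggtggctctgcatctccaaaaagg
Ldha: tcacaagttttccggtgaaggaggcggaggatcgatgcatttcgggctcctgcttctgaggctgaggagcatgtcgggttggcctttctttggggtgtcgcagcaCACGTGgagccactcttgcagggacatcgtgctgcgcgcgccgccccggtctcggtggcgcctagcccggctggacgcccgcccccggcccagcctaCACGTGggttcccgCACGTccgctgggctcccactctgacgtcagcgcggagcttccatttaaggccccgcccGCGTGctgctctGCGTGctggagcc
G6pdx: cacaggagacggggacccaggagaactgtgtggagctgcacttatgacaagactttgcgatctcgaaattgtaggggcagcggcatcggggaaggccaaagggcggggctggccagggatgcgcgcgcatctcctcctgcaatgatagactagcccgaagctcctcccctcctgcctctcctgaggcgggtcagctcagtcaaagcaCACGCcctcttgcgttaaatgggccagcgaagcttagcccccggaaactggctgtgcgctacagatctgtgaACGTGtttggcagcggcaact
Tkt: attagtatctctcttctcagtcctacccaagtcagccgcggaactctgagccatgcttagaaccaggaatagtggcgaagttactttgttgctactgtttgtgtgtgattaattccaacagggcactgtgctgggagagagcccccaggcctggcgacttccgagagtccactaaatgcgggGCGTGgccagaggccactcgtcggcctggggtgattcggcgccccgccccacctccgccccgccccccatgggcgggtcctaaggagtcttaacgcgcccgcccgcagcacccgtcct
The Bnip3, Egln3, Ldha and G6pdx windows hold ACGTG, and the Tkt window holds GCGTG alone.

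Beyond the members, 97 other genes of the same pathways were listed and 87 were abundant enough to test. Of these, 47 were lower and 12 higher, with a median of -0.34. With scaling by total count the split was 34 lower and 32 higher, with a median of 0.043. Of all genes tested, 29.7% were lower and 30.5% higher under TMM, and 17% and 51% by total count. Those shares are the background of each list below. Among the listed genes not tested were Slc2a4, Slc2a5, Tktl1, Tktl2, Pygm, Hif3a, Car12 and Nos2.

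Genes that decide the fate of pyruvate were lower in 10 of 12 cases and higher in 1, with a median of -0.90 (9 lower and 1 higher with scaling by total count). Mpc2, a subunit of the carrier that brings pyruvate into mitochondria, had 41.4 and 42.7 CPM with BMS-582949 and 160 and 144 CPM with DMSO (-1.86 ± 0.07, adjusted p = 6.5e-10). Pdhb, a subunit of pyruvate dehydrogenase, had 156 and 155 CPM with BMS-582949 and 427 and 444 CPM with DMSO (-1.49 ± 0.06, adjusted p = 9.7e-10). Of the kinases that switch pyruvate dehydrogenase off, Pdk1 (a HIF target), Pdk2 and Pdk3 fell. On the log2 scale they fell by 0.93 ± 0.06, 1.25 ± 0.12 and 1.56 ± 0.08, in that order. Their adjusted p-values were 9.1e-08, 1.8e-06 and 4.2e-09. Pdk4, their relative, took a larger share of PDK RNA per kilobase with BMS-582949. It took 7.50% and 5.48% there and 3.15% and 2.47% with DMSO. The phosphatase gene Pdp1, which acts against these kinases, was higher by 0.40 ± 0.15 (adjusted p = 0.033), a call lost without BMS-582949 replicate 1 (0.26), without DMSO replicate 2 (0.36), with DESeq2 (0.37) and without GC and length trends (0.23).

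Of 16 other glycolytic genes 7 were lower and 1 higher, with 5 lower and 7 higher when scaled by total count. Gpd1, which turns a glycolytic triose phosphate into glycerol 3-phosphate, had 1.61 and 1.13 CPM with BMS-582949 and 9.97 and 8.94 CPM with DMSO (-2.78 ± 0.23, adjusted p = 3.8e-07). Ldhd, the D-lactate dehydrogenase, had 3.91 and 2.72 CPM with BMS-582949 and 22.6 and 21.8 CPM with DMSO (-2.74 ± 0.17, adjusted p = 2.7e-08), with 42.2% of its exon sequence overlapped by another gene. Pgam2, the muscle mutase, fell by 2.08 ± 0.41 on the log2 scale (adjusted p = 7.5e-04), like Pgam1 among the members. Minpp1 was higher by 0.25 ± 0.07 (adjusted p = 0.0097), a call lost without DMSO replicate 1 (0.19). Bpgm, which makes 2,3-bisphosphoglycerate, was at 12.0 and 11.3 CPM with BMS-582949 and 10.0 and 8.72 CPM with DMSO and was not called (0.31 ± 0.14, adjusted p = 0.069), though it was called with upper-quartile scaling (0.37), without DMSO replicate 1 (0.42) and with scaling by total count (0.69).

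Other sugar and lactate transporters split into 5 higher and 4 lower of 12 tested, and into 6 and 4 with scaling by total count. These counts are near the shares of all genes tested, which were 30.5% higher and 29.7% lower under TMM and 51% and 17% by total count, so they say little of the list as a whole. The facilitative sugar transporter genes Slc2a3 (GLUT3), Slc2a6 and Slc2a9 rose by 1.29 ± 0.23, 1.47 ± 0.20 and 0.73 ± 0.16, with adjusted p-values of 3.8e-04, 3.7e-05 and 0.0020, whereas the member Slc2a1 fell under TMM scaling. They were far less abundant than Slc2a1 in counts, between 5.03 and 12.1 CPM in the BMS-582949 libraries. Slc37a2, a sugar-phosphate transporter gene, had 489 and 484 CPM with BMS-582949 and 2590 and 2895 CPM with DMSO (-2.50 ± 0.08, adjusted p = 1.3e-10), and its relative Slc37a1 was higher by 1.69 ± 0.25 (adjusted p = 9.6e-05).

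Among 7 other genes around the pentose phosphates, 2 were higher and 3 lower (3 and 2 with scaling by total count). For so few genes these counts are near the shares of all genes tested, 30.5% higher and 29.7% lower under TMM. They say little of the list as a whole. Prps1 and Prps2 make phosphoribosyl pyrophosphate, the activated ribose of nucleotide synthesis, from the product of Rpia. Prps1 had 37.6 and 41.6 CPM with BMS-582949 and 18.5 and 13.8 CPM with DMSO (1.29 ± 0.14, adjusted p = 5.0e-06). Prps2 had 41.5 and 39.2 CPM with BMS-582949 and 21.5 and 21.3 CPM with DMSO (0.91 ± 0.10, adjusted p = 8.5e-06). In both, the compound libraries lay above the DMSO libraries. Shpk, sedoheptulokinase, fell by 1.34 ± 0.18 on the log2 scale and Dera, deoxyribose-phosphate aldolase, by 0.57 ± 0.07, with adjusted p-values of 2.9e-05 and 1.6e-05. Rpe, the epimerase beside Rpia, was lower by -0.36 ± 0.11 (adjusted p = 0.015), turned to 0.016 with scaling by total count, and was not called without DMSO replicate 1 (-0.20). Of 7 glycogen genes, Pygb (a glycogen phosphorylase) was higher by 0.56 ± 0.08, while Gys1 (glycogen synthase) fell by 0.95 ± 0.09 on the log2 scale. In that list 1 gene was higher and 2 were lower, and 4 were higher and 2 lower with scaling by total count. The glycogen counts, too, say little of their list beside the shares of all genes.

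Of 10 other genes of the HIF machinery 6 were lower and none higher; with scaling by total count 2 were lower and 5 higher, so this direction depends on the scale. Without DMSO replicate 1 the count lower was 4 and without DMSO replicate 2 it was 3, again with none higher, and the median, -0.26 over all libraries, was -0.23 and -0.27. Epas1, the gene for HIF-2α, had 12.8 and 15.1 CPM with BMS-582949 and 15.3 and 12.6 CPM with DMSO (-0.0040 ± 0.14, adjusted p = 0.98), with overlap of the groups, and was called higher at 0.38 with scaling by total count. Arnt, the constant partner of both alpha subunits, was at 0.036 ± 0.10 (adjusted p = 0.79) and was called higher at 0.42 on that scale. Egln2 fell by 0.58 ± 0.06 on the log2 scale (adjusted p = 6.7e-06) and Arnt2 by 1.39 ± 0.39 (adjusted p = 0.0077), and the call of Arnt2 was lost without DMSO replicate 2 (-1.29). Hif1an, which blocks the activating domain of HIF, was lower by -0.41 ± 0.12 (adjusted p = 0.0089), at -0.025 with scaling by total count and not called without DMSO replicate 2 (-0.33). Vhl, the ubiquitin ligase subunit that recognises hydroxylated HIF, was lower by -0.31 ± 0.11 (adjusted p = 0.026), turned to 0.068 with scaling by total count, and was not called with upper-quartile scaling or without BMS-582949 replicate 1, DMSO replicate 1 or DMSO replicate 2.

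In the wider list of HIF targets 15 of 23 tested genes were lower and 2 higher, with a median of -0.41; with scaling by total count 10 were lower and 6 higher, with a median of -0.024. Hilpda, a lipid droplet protein gene, had 13.8 and 13.6 CPM with BMS-582949 and 42.1 and 40.2 CPM with DMSO (-1.59 ± 0.11, adjusted p = 7.4e-08). Bnip3l, the relative of Bnip3, had 49.9 and 53.4 CPM with BMS-582949 and 119 and 110 CPM with DMSO (-1.15 ± 0.07, adjusted p = 3.1e-08). Ddit4, an inhibitor of mTORC1 signalling, fell by 2.57 ± 0.31 on the log2 scale and the transcription factor gene Bhlhe40 by 1.52 ± 0.07, with adjusted p-values of 1.3e-05 and 2.2e-09. These genes went the way of Vegfa and Bnip3.

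Cxcr4, a chemokine receptor gene, went the other way: it had 45.9 and 46.5 CPM with BMS-582949 and 20.1 and 17.2 CPM with DMSO (1.31 ± 0.11, adjusted p = 5.8e-07). Both compound libraries lay above both DMSO libraries, as for Hif1a itself.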

How the data were processed

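RNA was measured in 2 libraries with BMS-582949 and 2 with DMSO. The deposited values are raw counts per gene, as whole numbers with unequal totals show; the submitters' processing notes name HISAT2 2.0.4, Trimmomatic 0.36, DESeq2 1.30.1 and the build GRCm38. The sources used here do not give the counting tool, the annotation or the use of strand. Without strand, reads of overlapping genes cannot be told apart. Members and gene lists were chosen with earlier results of these data known. Symbols and coordinates came from GENCODE M21, and similar gene models from blastn 2.17.0.

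Counts were tested with edgeR 4.0.16 in R 4.3.3 (filterByExpr at a minimum count of 10, TMM, glmQLFit and glmQLFTest, 2 residual degrees of freedom, Benjamini-Hochberg adjustment), after a test on simulated data. Counts of a group's 2 libraries differed by more than counting error (chi-square over its degrees of freedom, 13.7 with BMS-582949 and 9.62 with DMSO). Wider pathway genes were named by rule: up to 4 called genes per list and direction with a mean of at least 1 CPM, by size of change, plus Epas1, Arnt, Vhl, Egln2, Hif1an, Pdk1 and Bpgm. Some genes of these lists are not reported here by name. Lengths are those of the principal transcript. Alternatives were DESeq2 size factors, upper-quartile scaling, total count only, other low-count filters, DESeq2 1.42.0, limma-voom (limma 3.58.1), a replicate block, leaving out each library, stricter thresholds and removal of GC and length trends (loess, span 0.3). Shares per kilobase of all annotated exons were added after seeing the data and are given for some of the shares.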

Additional observations from a re-analysis of the deposited data

How the results depend on the processing

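With scaling by total count only, the counts were 6738 genes higher and 2240 lower, 14 members higher and 32 wider pathway genes higher, and Pgls (0.046), Pkm (0.23), Egln1 (0.36), Gapdh (0.19), Epas1 (0.38), Rpe (0.016), Vhl (0.068) and, without a call on either scale, Hk2 (0.28) had the opposite sign to that under TMM. On that scale 4 osteoclast genes take a smaller part of the total with BMS-582949 than with DMSO, and their part in these shifts was not tested. Requiring at least 2-fold gave 1314 genes higher and 1499 lower, 1 and 10 members, and 5 and 21 wider genes. The members' median log2 fold change of -0.45 was -0.47 with DESeq2 size factors and with DESeq2, -0.39 with upper-quartile scaling, -0.064 with total count only, -0.43 without a filter on low counts, -0.49 with at least 1 CPM in 2 libraries, -0.36 without GC and length trends and between -0.51 and -0.43 with 1 library left out; the cause was not tested. The share of all counts held by the members became 1.75% with BMS-582949 and 1.91% with DMSO when the 4 osteoclast genes were left out of the total.

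No pairing by replicate number was seen (correlation of same-numbered deviations -0.08, 2 pairs). This single value cannot exclude pairing, and the labels do not state it. With a replicate block 8 members were higher and 22 lower, and 3923 genes higher and 3830 lower. Leaving out 1 library gave 7 to 8 members higher and 22 to 23 lower. With 2 libraries a group, genes of few counts (Egln3, Ankrd37, the second Aldoa model) have imprecise changes. Dividing by the length of all exons in place of the principal transcript moved the levels of isozyme shares but the direction of none of the 26 computed.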
